A study of Mus musculus with 4 samples.

Results

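Promoter peaks of methylated Pontin whose centre lies upstream of a transcription start site (TSS) were examined. A peak was counted as upstream when its centre lay more than 250 and up to 2500 bp before the nearest TSS of any GENCODE vM21 transcript, on the strand of that gene. Peaks within 1000 bp of both start sites of a divergent protein-coding pair were left out. By this rule 1013 of the 4311 peaks, 23.5%, were upstream peaks. The other classes, used only for comparison, were 1421 peaks on a single TSS (at most 250 bp away), 537 downstream peaks (more than 250 and up to 2500 bp after the TSS), 411 peaks at divergent promoters and 929 distal peaks. The rule used position alone, so the height and the sequence of the peaks were not used to choose them.

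The peaks come from chromatin immunoprecipitation and sequencing (ChIP-seq) in mouse embryonic fibroblasts (MEFs) with an antibody to methylated Pontin. There are 4 libraries: a ChIP and an input (chromatin without immunoprecipitation) from cells in normal media, and the same pair from glucose-starved cells. No library has a replicate. All values here belong to the ChIP under glucose starvation as the authors compared it with input, and the ChIP in normal media was not analysed here, so no effect of starvation can be read from them. The labels give no genotype, passage or length of starvation for these cells, and no allele or agent beyond the media. The paper describes the glucose-starved cells of this ChIP-seq as wild-type (WT) MEFs. Peaks of 1 library are not replicates, so shares are given with 95% Wilson intervals, medians with 95% intervals from binomial ranks, and differences of shares with 95% Newcombe intervals. These intervals cover counting error only, and no test across peaks is given.

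Pontin (Ruvbl1) is an AAA+ ATPase that works with Reptin (Ruvbl2) in chromatin remodelling complexes such as INO80, SRCAP and TIP60. CARM1, an arginine methyltransferase and transcriptional coactivator, methylates it, and the study asked how methylated Pontin takes part in the control of autophagy genes by FOXO3a, a forkhead factor that becomes active when nutrients are short. Many mammalian promoters are CpG islands, stretches rich in G and C around the TSS. Upstream of the island the DNA returns to the lower GC content of the rest of the genome, and this flank can hold sites of sequence-specific factors and a nucleosome next to the nucleosome-depleted region.

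The central 200 bp of 7 upstream peaks, all of genes of the lists below, are shown as examples of motif letters. The shares given below are counted over all upstream peaks and do not rest on these 7. The sequences are read from GRCm38 on the strand of the gene, 5′ to 3′, so that the right end is the one nearer to the TSS, and none overlaps an annotated exon. In the first 3 the capitals mark the FOXO 7-mer (GTAAACA or its reverse complement, the core that forkhead factors bind). In Upf3b they mark the letters TCACGTG (CLEAR E-box), known as a core of sites of the lysosomal regulator TFEB. In Lamp1 and Ruvbl1 they mark the CCAAT box, and in Med13 the overlapping GC box (GGGCGG or its complement) and E2F letters (GCGGGAA or its complement).
Atg16l1, chr1:87755380-87755579, plus strand: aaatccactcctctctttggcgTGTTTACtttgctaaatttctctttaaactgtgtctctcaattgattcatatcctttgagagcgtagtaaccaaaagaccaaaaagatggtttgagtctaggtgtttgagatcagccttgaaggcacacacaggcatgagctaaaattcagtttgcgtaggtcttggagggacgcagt
Atp6v1h, chr1:5082634-5082833, plus strand: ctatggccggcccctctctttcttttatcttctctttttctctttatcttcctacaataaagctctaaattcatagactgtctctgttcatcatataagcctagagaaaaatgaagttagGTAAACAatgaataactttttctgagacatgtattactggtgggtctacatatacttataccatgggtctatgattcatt
Atp6v1e1, chr6:120823154-120823353, minus strand: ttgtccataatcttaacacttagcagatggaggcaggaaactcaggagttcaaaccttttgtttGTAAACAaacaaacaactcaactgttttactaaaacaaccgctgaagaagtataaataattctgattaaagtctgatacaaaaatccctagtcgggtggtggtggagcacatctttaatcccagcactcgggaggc
Upf3b, chrX:37110921-37111120, minus strand: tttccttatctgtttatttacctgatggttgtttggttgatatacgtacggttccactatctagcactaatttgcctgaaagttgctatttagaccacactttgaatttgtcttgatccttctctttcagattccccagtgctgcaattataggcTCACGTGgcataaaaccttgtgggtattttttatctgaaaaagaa
Lamp1, chr8:13158353-13158552, plus strand: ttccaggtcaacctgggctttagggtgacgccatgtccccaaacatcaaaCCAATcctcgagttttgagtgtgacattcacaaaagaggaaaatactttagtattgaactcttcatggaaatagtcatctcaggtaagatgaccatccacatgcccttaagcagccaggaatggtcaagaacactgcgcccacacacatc
Ruvbl1, chr6:88464832-88465031, plus strand: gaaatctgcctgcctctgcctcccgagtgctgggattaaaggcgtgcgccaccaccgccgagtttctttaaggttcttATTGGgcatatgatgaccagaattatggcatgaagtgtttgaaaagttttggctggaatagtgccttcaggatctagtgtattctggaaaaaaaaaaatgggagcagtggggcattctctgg
Med13, chr11:86357861-86358060, minus strand: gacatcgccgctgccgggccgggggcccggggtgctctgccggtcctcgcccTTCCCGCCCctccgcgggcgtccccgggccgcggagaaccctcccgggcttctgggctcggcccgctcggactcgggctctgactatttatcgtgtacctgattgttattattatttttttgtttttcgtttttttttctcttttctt
These windows differ widely in composition. The Atp6v1h window had 34.5% G and C, those of Upf3b, Atp6v1e1 and Atg16l1 had 37.0%, 39.5% and 41.5%, and those of Lamp1 and Ruvbl1 had 45.5% and 47.0%. Med13, with 61.0%, was GC-rich at the end farther from the TSS and rich in T at the nearer one.

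Upstream peaks lay close to their start sites. Their median distance was 469 bp (quartiles 354 and 642 bp), and the farthest lay 2371 bp away. Of the 1013, 566 (55.9%) lay at most 500 bp upstream, 368 (36.3%) lay more than 500 and up to 1000 bp upstream and 79 (7.80%) lay farther out. In bins of 50 bp, the number of peaks on single start sites fell to 70 between 100 and 50 bp upstream and rose to 150 between 250 and 200 bp upstream. The first bin of upstream peaks held 138, and the numbers then fell with distance. The inner limit therefore cuts through a continuous shoulder of peaks.

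**Figure D1:**
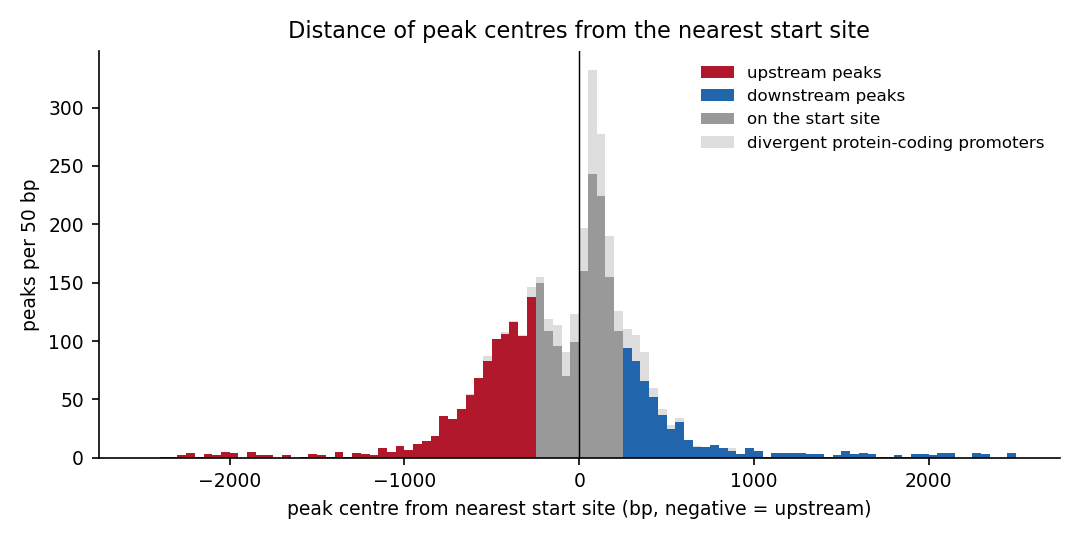
Number of peaks per 50 bp against the distance of the peak centre from the nearest start site, with negative distances upstream, stacked by class. The upstream peaks begin at the limit with 138 peaks in the innermost bin and thin out to few beyond 1000 bp, while a dip of 70 peaks on single start sites separates them from the highest bins just downstream of the start site.

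At the inner limit the peaks just inside were those of Enah and Zfp958, both 1 bp beyond it, with 9.87 and 14.4 normalised tags. Just outside lay those of Smim27 and Zfp846, both at 249 bp, with 14.4 and 15.2 normalised tags. At the outer limit the last members were Gm23299 at 2371 bp (16.4 normalised tags) and Gm24549 at 2325 bp (10.8). The first peaks beyond it were those of Tac4 at 2515 bp (10.6) and Hspd1-ps5 at 2586 bp (14.4).

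Upstream peaks outnumbered downstream peaks 1013 to 537, a ratio of 1.89. This ratio depended on which start sites were used. With transcripts of protein-coding genes alone there were 1066 against 444 (2.40), and with basic-tagged transcripts 1041 against 642 (1.62). With only the outermost TSS of each gene it fell to 948 against 767 (1.24). Under that setting a peak downstream of the first TSS of a gene no longer counts as lying on a second one. More peaks were upstream than downstream under each of these 4 settings, but the excess was small under the last.

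The upstream peaks were about as high as those on the TSS. The deposited height of a peak, called normalised tags below, is its number of tags per 10000000 tags of the library, which held 20765512 tags in all, 0.649% of them in peaks. Upstream peaks had a median of 15.2 normalised tags (95% interval 14.7 to 15.7, range 8.19 to 34.2). In the library this is 31.6 tags for the median peak and 17.0 to 71.0 over all members, so the height of a single peak is imprecise. The median was 14.7 (14.4 to 14.9) on the TSS, 14.0 (13.7 to 14.4) downstream, 12.5 (12.3 to 13.0) in distal peaks and 14.2 over all peaks. The authors' fold over input had a median of 9.14 (8.64 to 9.66) for upstream peaks, 9.45 (9.03 to 9.81) on the TSS and 8.57 (7.97 to 9.35) downstream. The interval of the upstream height did not overlap that of the downstream height, whereas the intervals of the fold did.

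Of the upstream peaks, 594 (58.6%, 55.6 to 61.6) were at least 8-fold over input, where 55.9% of all peaks were. The share was 54.2% downstream, a difference of 4.45 percentage points with an interval from -0.724 to 9.63, and 58.8% on the TSS, a difference of -0.124 points (-4.10 to 3.83). The intervals of both differences include 0. Within the class, height changed little with distance. The median was 15.2 normalised tags up to 500 bp, 15.3 from there to 1000 bp and 14.2 beyond 1000 bp.

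In base composition the upstream peaks stood far from those on the TSS. The median GC content of their central 200 bp was 47.5% (46.5 to 48.0), against 64.0% (63.5 to 65.0) on the TSS and 55.0% (54.0 to 56.5) downstream. Distal peaks had the same median, 47.5% (47.0 to 48.5). Only 156 of 1013 (15.4%, 13.3 to 17.8) were CpG-rich, meaning a GC content over 50% and a CpG ratio (observed over expected) over 0.6 across the whole peak. The share was 42.8% downstream, so that the upstream share minus the downstream share was -27.4 points (-32.1 to -22.7). The CpG-rich share was 73.3% on the TSS and 3.66% (2.63 to 5.07) in distal peaks. Among the nearest upstream peaks, up to 500 bp out, 20.8% were CpG-rich, against 7.61% from there to 1000 bp and 12.7% beyond.

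The genes of the upstream peaks nevertheless had GC-rich start sites. At the TSS itself the median GC content of the 200-bp window was 65.0%, higher than at the peak in 922 of the 1013 promoters (91.0%). The peak was also lower than the position as far downstream of the same TSS in 750 promoters (74.0%). Downstream peaks also lay lower than their TSS (55.0% against 64.0%) but higher than their mirrored upstream position in most promoters (lower in 37.6%). In all protein-coding genes the median was 58.5% at the TSS and 46.0% at 469 bp upstream. The upstream peaks thus had nearly the composition of this position in promoters in general, while their start sites were richer in G and C. At 469 bp downstream of all protein-coding genes the median was 53.5%, so the lower GC content of the upstream side is also a trait of promoters in general. Peak height did not follow GC content: the median was 14.0 normalised tags in the 135 peaks under 40% GC, 15.4 in the 487 from 40% to 50%, 15.4 in the 299 from 50% to 60% and 14.4 in the 92 above.

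**Figure D2:**
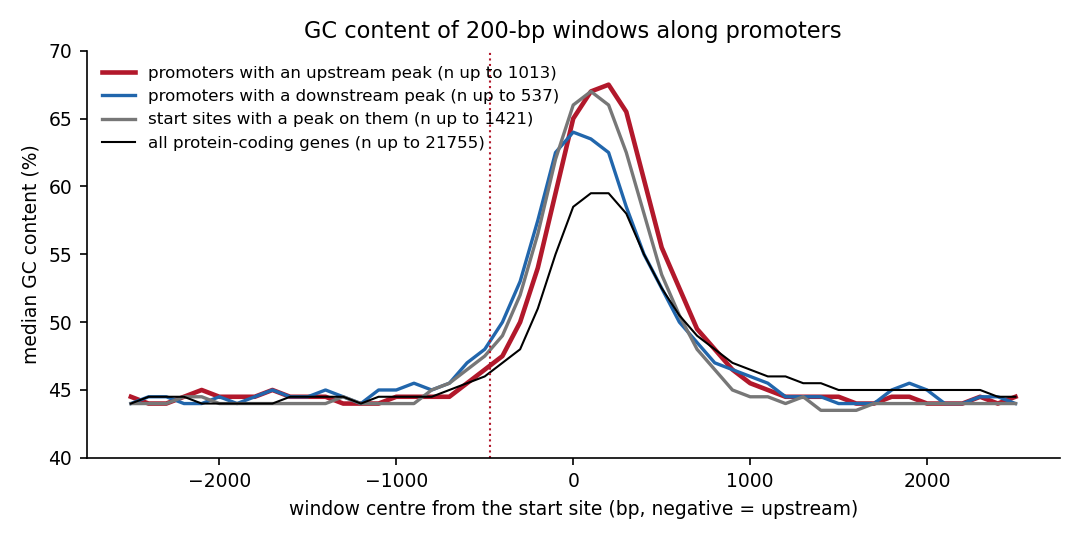
Median GC content (%) of 200-bp windows against the distance of the window centre from the start site, for promoters with an upstream peak (thick red line), with a downstream peak (blue) or with a peak on the start site (grey), and for all protein-coding genes (black). The dotted line marks the median upstream distance of 469 bp, where the red line lies on the slope between the flat upstream level of about 44.5% and the summit of 67.5% at 200 bp downstream.

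Motif letters were counted on both strands of the central 200 bp. Beside the FOXO, E2F, CLEAR, GC box and CCAAT letters given above, the search used CCGGAAG for ETS factors, CGCATGCG for NRF1, AAGATGGC for YY1 and TGACTCA for AP-1. It also used ACATTCC for TEAD factors, TGACGTC for the cyclic AMP response element, TATAAA for the TATA box and CTCGCGAG for a palindromic promoter element. A GC box and E2F letters can overlap, as in Med13, and each was counted. A match describes the letters and does not show that a factor binds there.

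The most frequent letters in upstream peaks were the CCAAT box, in 23.8%, the TATA letters, in 10.6%, and the GC box, in 9.28% (7.64 to 11.2). These are also the shortest of the searched letters, and short letters match more often in any sequence. Shares of motifs of unlike length are therefore not ranked against each other. Compared with downstream peaks, the GC box was rarer, with a difference of -13.4 points (-17.5 to -9.57), the CCAAT box more frequent by 8.52 points (4.38 to 12.4) and the TATA letters more frequent by 5.91 points (3.16 to 8.43). E2F letters were rarer too, 1.68% against 3.91% (difference -2.23 points, -4.32 to -0.566). On the TSS the GC box was in 38.0% of peaks, ETS letters in 7.67% and E2F letters in 7.18%. Distal peaks held the GC box in 6.03%, the CCAAT box in 19.4%, TATA letters in 9.80% and E2F letters in 1.08%. In these 4 motifs they were nearer to the upstream peaks than the downstream peaks were, so the profile is not particular to upstream peaks.

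The 21744 windows at 469 bp upstream of protein-coding genes held nearly the same shares. The CCAAT box was in 24.5% of them, the GC box in 8.85% and E2F letters in 1.63%, all within the intervals of the upstream peaks. TATA letters were in 12.9% of these windows, just above the upper end of the interval of the upstream peaks (8.82 to 12.6). AP-1 letters, to which Fos and Jun bind, were in 2.87% of these windows and in 1.48% (0.899 to 2.43) of the upstream peaks. YY1 letters were in 1.29% of the windows and in 2.17% (1.44 to 3.27) of the upstream peaks. For the other 10 motifs the share in these windows was within the interval of the upstream peaks. At 469 bp downstream of protein-coding genes the 21754 windows held the GC box in 19.6%, the CCAAT box in 19.8%, TATA letters in 7.87% and E2F letters in 3.08%. In these motifs, promoters in general thus differed between the upstream and the downstream side in the same direction as the peaks.

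The FOXO 7-mer was in 30 of 1013 upstream peaks, or 2.96% (2.08 to 4.20). Of the downstream peaks 2.79% held it, and the difference of 0.168 points had an interval from -1.80 to 1.82. On the TSS it was in 0.915%, which is 2.05 points (0.957 to 3.34) below the upstream share. In distal peaks it was in 3.01% (2.09 to 4.32). At 469 bp upstream of all protein-coding genes it was in 2.92%. The upstream peaks therefore held this exact 7-mer about as often as those windows, which lie at a single distance from a single start site of each gene. Other forms of the forkhead site were not searched. The paper's own motif analysis of its methylated Pontin ChIP-seq gave FOXO3a response elements the highest significance, and that analysis was not repeated here. The 30 holders had a median of 14.0 normalised tags and a median fold over input of 7.43, against 15.2 and 9.14 over all members, and 43.3% of them were at least 8-fold over input. They included the proton pump subunits Atp6v1e1 and Atp6v1h and the autophagy gene Atg16l1, shown above. Among the 49 upstream peaks of list genes no other held it. The other holders were outside the lists, among them the highest, Pcm1 (23.8 normalised tags), and so few show no link to a list.

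The CLEAR E-box letters were in 15 upstream peaks (1.48%), against 1.12% of the downstream peaks (difference 0.363 points, -1.06 to 1.49) and 1.04% of the windows of all protein-coding promoters. None of these 15 belonged to the lysosomal or autophagy lists. Among all 1013 upstream peaks the lysosomal list had only 6 genes, the core autophagy list 4 and the study's list 5. With so few, the lack of overlap is not a result about these genes. Of the genes of all lists only Upf3b, shown above, held them, a factor of nonsense-mediated decay.

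**Figure D3:**
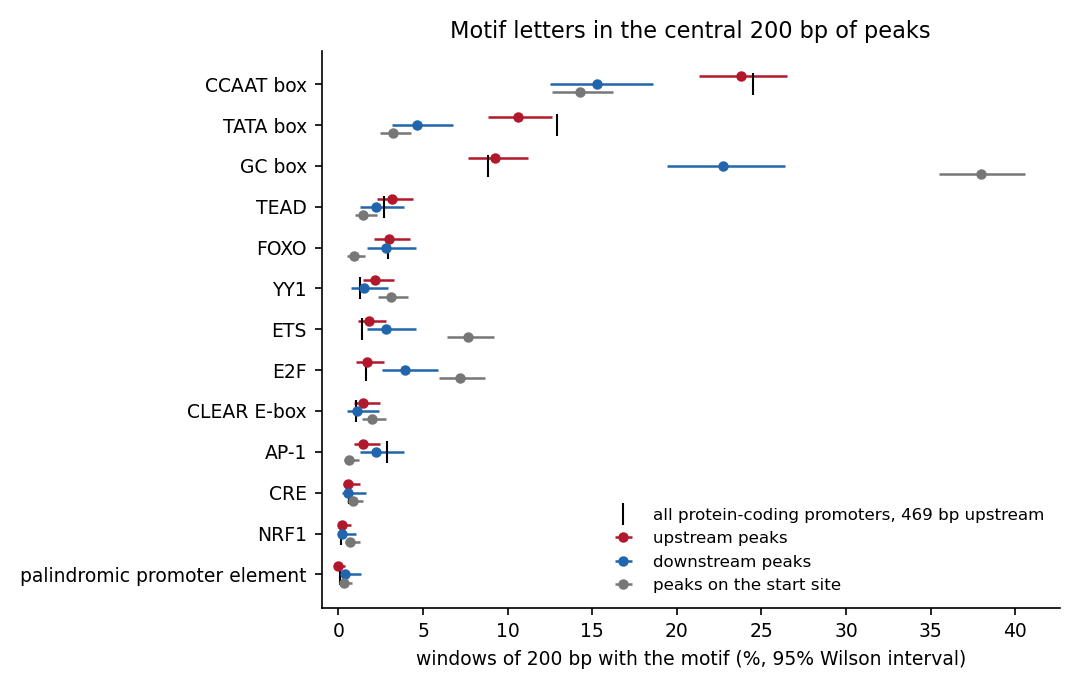
Share of 200-bp windows (%) that hold each of 13 motifs, with 95% Wilson intervals, for upstream peaks (red), downstream peaks (blue) and peaks on the start site (grey). Black ticks give the share at 469 bp upstream in all protein-coding promoters, close to the red points for the CCAAT box (24.5% and 23.8%), the GC box (8.85% and 9.28%) and FOXO (2.92% and 2.96%).

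Most upstream peaks lay between genes. The centre was intergenic in 751 (74.1%), in an intron in 194 (19.2%) and in an exon in 68 (6.71%). For 122 members the centre lay inside the gene of its own nearest TSS, upstream of an internal start site, as for Rpl3, Psat1, Sirt1, E2f3, Hk1, Atp6v1h, March8 and Fbn1. By their position these 122 are upstream of that internal TSS only. They had a median of 14.7 normalised tags, the other 891 one of 15.2. For 42 peaks a TSS on the other strand, transcribed away from the peak, was also within 2500 bp, and in 20 of these it belonged to a protein-coding gene.

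The nearest TSS belonged to a protein-coding gene for 934 peaks (92.2%, 90.4 to 93.7). This was more than downstream (75.6%, a difference of 16.6 points, 12.7 to 20.7) and on the TSS (87.6%, 4.59 points, 2.16 to 6.94). Of the other 79, 25 were of long intergenic noncoding RNAs, 10 of antisense RNAs and 5 of microRNAs. The rule takes the nearest TSS only. A TSS of another gene on the other strand, transcribed away from the peak, was within 2500 bp for 4.15% of upstream peaks. For downstream peaks this share was 23.1% and for those on the TSS 15.8%. How far the rule itself makes the differences in the protein-coding share was not tested. Noncoding start sites lay farther off: 27 of the 79 peaks were over 1000 bp away, as were 52 of the 934. The share of protein-coding genes was 94.7% up to 500 bp and 65.8% beyond 1000 bp. Repeat-masked sequence was more frequent than in the downstream peaks and those on the TSS, and close to its share in the distal peaks. Over 50% of the peak was masked as repeats in 8.79% of the upstream peaks, 2.79% of the downstream peaks, 0.352% of those on the TSS and 8.61% (6.97 to 10.6) of the distal peaks. The 89 members concerned had the same median height as the rest, 15.2 normalised tags.

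Few upstream peaks had a second listed peak on the other flank of the same TSS. A second peak lay downstream of the TSS within 2500 bp for 17 of 1013 members (1.68%, 1.05 to 2.67). The header of the peak list gives a minimum distance of 962 bp between peaks. Only a few of these pairs were closer, such as that of Dph6 (388 bp upstream and 473 bp downstream). Peaks at the median distances of the 2 classes, 469 bp upstream and 424 bp downstream, would lie closer together than this minimum. The limit can thus keep pairs off the list, so the small share does not show how often both flanks carry signal. The upstream peak was the higher of the pair in 10 and the lower in 6, and both were equal in Rbm39. Among them were Chrac1, a histone-fold subunit of a chromatin remodeller, with 25.5 normalised tags upstream and 23.8 downstream, and Akt2, a kinase of insulin signalling, with 10.6 and 11.6. Ppp1r15b, a phosphatase subunit that reverses the integrated stress response, had 14.2 upstream and 14.4 downstream. The GTPase Ran had 16.1 and 16.9, and the upstream peak was 5.22-fold over input where the downstream peak was 14.5-fold.

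The highest upstream peaks reached 27.2 to 34.2 normalised tags. First was the peak 496 bp upstream of the microRNA gene Mir8111 (chr8:84004892-84005372), with 34.2 normalised tags (95% Poisson interval 26.7 to 43.1). Gatad2a, a subunit of the NuRD complex, followed with 29.9 (22.9 to 38.3), and Lamp1, a major protein of the lysosomal membrane, with 29.6 (22.7 to 38.0) at 708 bp (chr8:13158213-13158693). Fibp and Gins3, a subunit of the replicative GINS complex, had 28.9 each, and Ndufaf1, an assembly factor of respiratory complex I, had 28.7. Pck2, the mitochondrial phosphoenolpyruvate carboxykinase, had 28.4, at 752 bp in an intron of the noncoding gene Gm10876. The remaining members of the first 10 were Patl1, an mRNA decay factor (27.7), Tmbim6, an inhibitor of cell death in the ER membrane (27.4), and the ribosomal protein gene Rpl3 (27.2). All the Poisson intervals of these 10 overlap, so their order is not fixed. Their fold over input ran from 4.63 for Ndufaf1 to 23.7 for Tmbim6.

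The order by fold was a different one. The highest were Ubald1 (61.7-fold, 23.8 normalised tags), Rtel1, a helicase that protects telomeres (59.8-fold, 23.1), Psat1, an enzyme of serine synthesis (57.9-fold, 22.4), the histone demethylase gene Kdm5a (55.5-fold, 21.4) and Msantd4 (55.5-fold, 21.2). Dividing the height by the fold gives the input level behind it. For all 5, and for all of the first 10 by fold, it was the lowest that occurs among upstream peaks (within 5% of 0.376 normalised tags), a level shared by 92 members (9.08%). The median over all members was 1.55 normalised tags. The size of these folds therefore rests on very few input tags, if any, and at this shared level it follows the height. None of the 5 was among the 10 highest peaks.

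Peak height also went with the chromosome. The 53 upstream peaks on chromosome 8 had a median of 20.0 normalised tags, against 14.9 for the other 960, while their fold over input was lower, 7.82 against 9.19. Of the first 10 by height 4 were on chromosome 8, namely Mir8111, Gatad2a, Lamp1 and Gins3. Chromosome 8 held 5.23% of all upstream peaks. High medians were also found on chromosomes 15 (18.3) and 19 (17.8), and the lowest on X (9.39, 12 peaks), followed by 7 and 1 (12.7). Peaks of the other classes followed a similar order, with 17.3 on chromosome 8 and 11.3 on X. Across the 20 chromosomes the medians of upstream and other peaks had a Pearson correlation of 0.937 and a Spearman correlation of 0.914, as a description of 1 library that both share. The part of the chromosome in the height of single peaks was not tested.

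**Figure D4:**
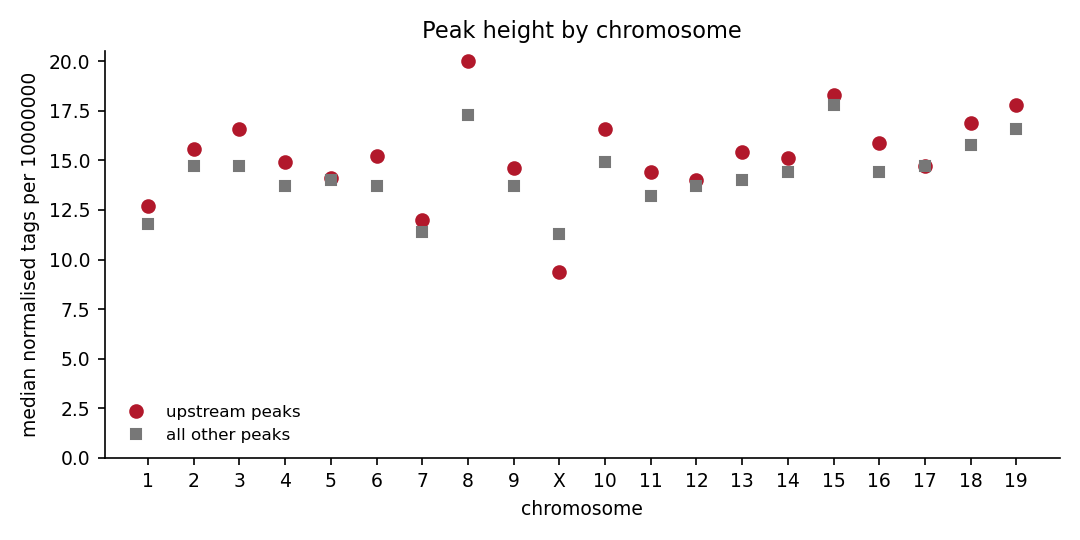
Median height in normalised tags by chromosome, for upstream peaks (red circles) and all other peaks (grey squares). Both are high on chromosome 8 (20.0 and 17.3) and 15 (18.3 and 17.8) and low on X (9.39 and 11.3).

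Of the 21755 protein-coding genes, 933 (4.29%) had an upstream peak assigned to them, and 2956 (13.6%) had any peak within 2500 bp of their nearest TSS. The 15 lists of genes examined hold 499 genes, of which 497 were in the annotation. Of these 130 (26.2%) had a peak and 49 (9.86%) an upstream peak. Among genes with a peak, the upstream share was 37.7% in the lists and 31.6% over all protein-coding genes. The 49 had a median height of 14.9 normalised tags and 57.1% were at least 8-fold over input, near the values of all upstream peaks. Peaks lie mainly at GC-rich promoters, and the lists were not matched to all genes in this, so the higher share of genes with a peak is given as a count only.

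Among lysosomal genes, 6 of 54 had an upstream peak (11.1%, 5.19 to 22.2). Among them were Lamp1 (29.6 normalised tags, 15.3-fold over input), Atp6v1e1 (22.9, 14.8-fold) and Atp6v1h (10.8, 7.01-fold), both subunits of the proton pump that acidifies lysosomes, the calcium channel gene Mcoln1 (21.4, 5.04-fold) and the galactosidase gene Glb1 (16.6, 7.16-fold). Lamp1, Atp6v1e1 and Mcoln1 were above the class median of 15.2 with the lower bound of their Poisson interval as well (22.7, 16.9 and 15.6). Lamp1 and Mcoln1 are on chromosome 8, where the median of upstream peaks was 20.0. The Mcoln1 interval (15.6 to 28.7) includes that value, and the Lamp1 interval lies above it. In the Atp6v1e1 peak 62.8% of the sequence was masked as repeats, in Atp6v1h 50.9% and in Mcoln1 39.5%.

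In the core autophagy machinery 4 of 48 genes had an upstream peak (8.33%, 3.29 to 19.6). Nrbf2 and Ambra1, which act in or on the class III phosphatidylinositol 3-kinase complex, had 19.5 and 17.8 normalised tags. Atg16l1, part of the complex that lipidates LC3, had 11.1, and Atg4d, a protease that processes LC3 family members, had 9.63. Only Nrbf2 (12.6-fold) was over 8-fold, and Atg16l1 (4.09-fold) and Ambra1 (4.19-fold) stood near the lower limit of 4-fold that the authors required. Of the 50 autophagy and lysosomal genes listed by the study 5 had an upstream peak, among them Mcoln1, Sirt1, Trp53inp1 and March8. The study chose that list, so this count is not independent evidence.

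Nutrient sensing genes with an upstream peak were 5 of 43 (11.6%, 5.07 to 24.5). These were the AMPK subunit genes Prkaa2 (9.87 normalised tags, 25.5-fold) and Prkab1 (15.9, 10.3-fold), the kinase gene Mtor (15.9, 41.1-fold), the GTPase gene Rheb (13.0, 33.6-fold), which activates mTOR, and the deacetylase gene Sirt1 (12.5, 8.10-fold). All 5 were at least 8-fold over input, where 58.6% of all upstream peaks were, and none was high. The folds of Prkaa2, Mtor and Rheb rest on the lowest input level given above, that is on very few input tags, if any. Of 26 genes of glycolysis and glucose uptake 2 had an upstream peak, Pgam1 (18.5) and Hk1 (14.0), the latter 2007 bp before an internal TSS.

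The integrated stress response and ER chaperones had the highest share, 6 of 28 (21.4%, 10.2 to 39.5), with an interval that overlaps those of all other lists. Herpud1, a factor of ER-associated degradation, had 26.7 normalised tags, the chaperone gene Hspa5 had 20.0 at 2217 bp, Nfe2l1, a regulator of proteasome genes, had 15.7, Ppp1r15b had 14.2, the co-chaperone gene Dnajb9 had 11.1 and the disulfide isomerase gene Pdia6 had 9.39. Herpud1 is on chromosome 8 and its peak lies in an intron of Gm15890. The Hspa5 peak, at 6.46-fold over input, was with that of March8 (2216 bp) the farthest from its TSS among the list genes.

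Among genes of transcription elongation and RNA polymerase II 8 of 45 had an upstream peak (17.8%, 9.29 to 31.3), none higher than 17.1 normalised tags. They included the Mediator subunit genes Med1 (16.6, 43.0-fold over input) and Med13 (13.2, 6.85-fold), the kinase genes Cdk7 (16.9, 21.8-fold) and Cdk13 (15.2, 4.91-fold), and Hexim1, an inhibitor of P-TEFb (14.0, 9.03-fold). The others were Polr2k, Ercc2 and Supt5, and 6 of the 8 were at least 8-fold. In the cell cycle and replication list 8 of 60 had one (13.3%, 6.91 to 24.2), from Gins3 (28.9) and the pocket protein gene Rbl2 (20.0, 51.7-fold) through E2f3 (19.7), Cdc20, Rpa2, Mcm5 and E2f2 to Mcm10 (9.39). The folds of Med1 and Rbl2 rest on the lowest input level given above, that is on very few input tags, if any. Gins3, Rbl2 and Mcm5 are on chromosome 8.

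Pontin's own gene had an upstream peak. The Ruvbl1 peak (chr6:88464692-88465172) lay 477 bp upstream, with 19.3 normalised tags (13.8 to 26.3) and 12.5-fold over input, and 49.5% of it was masked as repeats. Of the 34 genes of Pontin, Reptin and their complexes the only other one was Rpap3, a partner of Pontin and Reptin in the assembly of polymerases (14.4, 4.67-fold). In nonsense-mediated decay and splicing 4 of 39 had an upstream peak, Upf1 (23.6), Hnrnpc (18.3), Srsf9 (10.6) and Upf3b (9.39), although 19 had a peak within 2500 bp of their nearest TSS. The immediate-early list had Dusp6 alone (14.2, 1 of 29), and the extracellular matrix list Fbn1 alone (12.5, 1 of 39), 252 bp before an internal TSS and in an exon. None of the 11 replication-independent and linker histone genes, the 16 fibroblast markers and the 6 markers of other cell types had an upstream peak. Among the 67 histone genes of the clusters, counted by symbol after their values were seen, 2 had one, Hist1h3e (14.4) and Hist2h3b (15.7). A peak within 2500 bp of the nearest TSS was found at 3 of the fibroblast markers, at 1 of the 11 histone genes and at none of the markers of other cell types. A list of binding sites therefore does not check the cell type here.

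**Figure D5:**
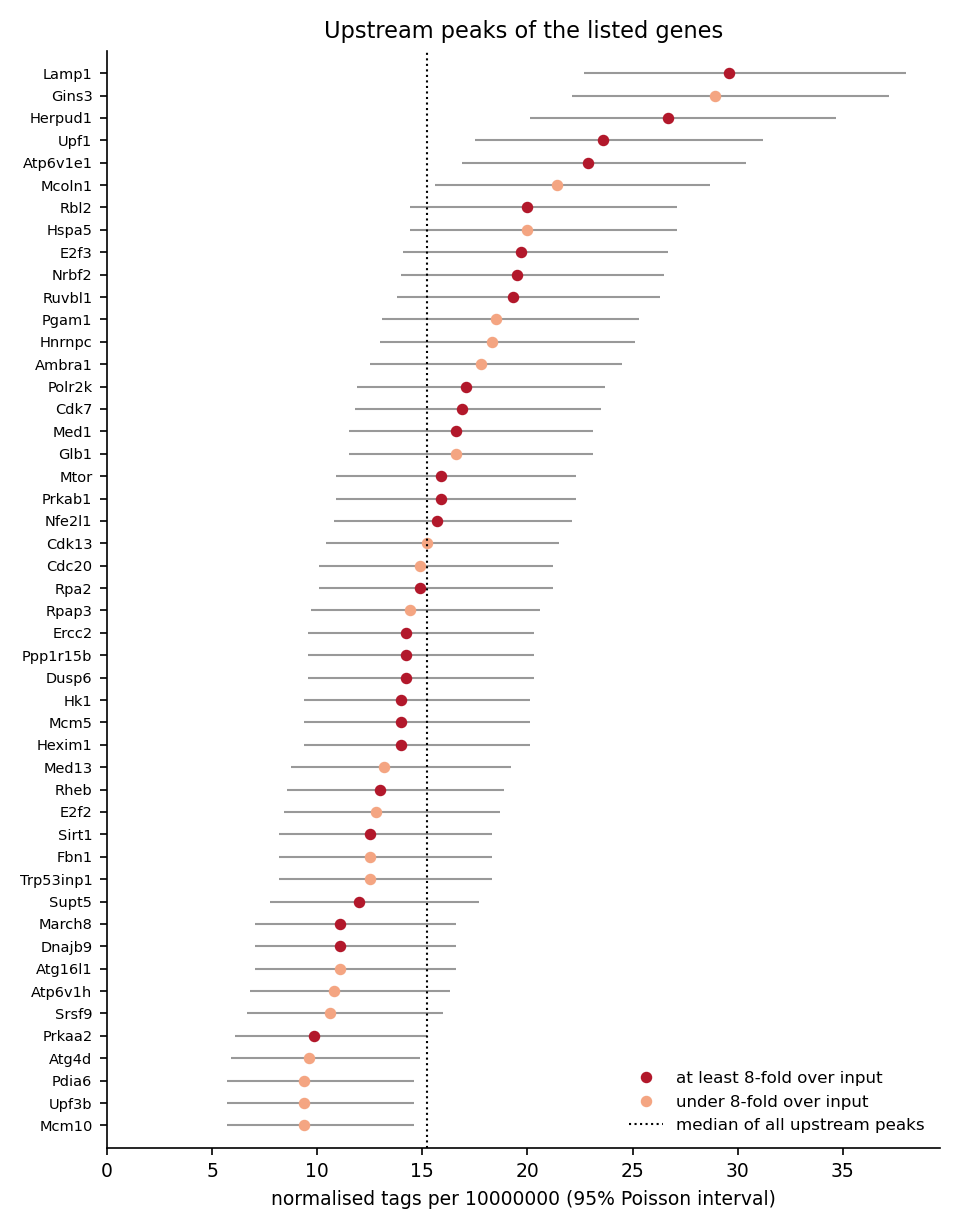
Height in normalised tags, with 95% Poisson intervals from the tags in the library, of 48 of the 49 upstream peaks at genes of the lists, dark red where the fold over input is at least 8. Most intervals cross the dotted line at the median of all 1013 upstream peaks (15.2), and Lamp1 (29.6), Gins3 (28.9) and Herpud1 (26.7) lie highest.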

How the data were processed

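Alignment by the authors was with Bowtie2 to mm10 (GRCm38), and their peaks are from HOMER 4.7.2 against input. The deposited signal is the tag count per 10000000 tags (normalised tags), and the score is the authors' own peak score. The ratios are the authors' folds over input and over the surrounding 10000 bp, and the deposited p-value beside each is from HOMER's Poisson model. The authors also deposited a fraction for peak shape, which carries no result. The caller required a tag threshold of 18, a false discovery rate of 0.001, at least 4-fold and p at most 0.0001 against both. Regions below these limits were not analysed here. In the list, 1 further column of tags could not be assigned to a library and was not used.

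Peak centres were assigned to GENCODE vM21 start sites, and sequence was read from GRCm38.p6, with pandas 2.3.3, SciPy 1.17.1 and NumPy 2.4.6 in Python 3.11.15 (plots with matplotlib 3.10.9). No test was run across peaks. Poisson intervals on the tags of a peak assume independent tags. Assignment, motif search and intervals were tested on simulated data. The peaks and gene lists were chosen with earlier results of these data known. Genes were named by rule: the 10 highest upstream peaks, the 5 with the highest fold, all genes of the lists, and the peaks at the distance limits. Of the listed genes with an upstream peak 1 is counted but not reported here. The FOXO and CLEAR holders, the pairs and the gene families were named after their values were seen.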

Additional observations from a re-analysis of the deposited data

How the results depend on the processing

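Of 110 values of 9 results under the alternatives, 92 stayed within the main 95% interval (for the number of peaks, within 1.5 times) and 18 did not. With an inner limit of 500 bp the class fell to 447 peaks, their median GC content to 46.0%, the share with the GC box to 5.82% and the protein-coding share to 89.0%. Peaks at least 8-fold over input numbered 594, with a median of 15.9 normalised tags and 13.7-fold. The upper part by score kept 601, with 17.3 normalised tags, 10.1-fold, 64.9% at least 8-fold and 93.8% protein-coding. Searching the whole peak, which is longer, gave the GC box in 26.8% and the FOXO 7-mer in 6.42%. The protein-coding share was 100% by construction with protein-coding start sites alone, 94.4% with an outer limit of 1000 bp, 90.3% with 5000 bp and, in an alternative added after seeing the data, 88.6% with the outermost TSS of each gene. The other added alternatives, without peaks inside their own gene, without peaks over 50% repeat-masked and without chromosome 8, moved no value past these limits. Depth limits the precision of single peaks: the median upstream peak has 31.6 tags. No paired analysis was possible because each group has 1 library and no test was run.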

Other observations

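Gene families were also counted by symbol, chosen after their values were seen. Of 394 zinc finger genes named Zfp, many of them encoding KRAB repressors, 117 (29.7%) had a peak within 2500 bp of their nearest start site and 39 (9.90%) had an upstream peak, with heights from 8.67 normalised tags at Zfp442 to 24.6 at Zfp622. Cytoplasmic ribosomal protein genes had a peak in 38 of 81 (46.9%) and an upstream peak in 12 (14.8%), among them Rpl3 (27.2 normalised tags), Rpl23 (19.5), Rpl14 (19.0) and Rpl6 (18.8). Of 78 genes of mitochondrial ribosomal proteins 31 (39.7%) had a peak and 3 (3.85%) an upstream one, near the share over all protein-coding genes. These were Mrpl1 (17.3), Mrpl58 (15.9) and Mrpl28 (13.0). Initiation factors of translation had 6 upstream peaks in 54 genes (11.1%), with Eif3d (25.3) and Eif5 (19.7) the highest. Of the 59 Rab GTPase genes 5 had one (8.47%), and the late endosomal Rab7 (14.7) was among them. None of 1134 olfactory receptor genes had a peak within 2500 bp. Over all protein-coding genes 4.29% had an upstream peak. No test was made of these counts.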
